A study of Oryza sativa with 23 samples.

Results

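The 5 rice genes described here encode the enzymes that make nicotianamine and deoxymugineic acid: OsNAS1 (OS03G0307300), OsNAS2 (OS03G0307200), OsNAS3 (OS07G0689600), OsNAAT1 (OS02G0306401) and OsDMAS1 (OS03G0237100). They were chosen as the biosynthetic steps of this pathway, not by a rule on measured values, although earlier results of these data were known. They are 5 of the 35679 genes in the files. Their level was followed over 8 groups of libraries made from L2 leaves and whole roots of 2 rice varieties, Lachit and Hacha. Lachit descends from CRM 13-3241 crossed to Kalinga 2, and Hacha from CRM 53 crossed to IR 64.

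The groups were Lachit leaf under excess iron, Lachit leaf control, Hacha leaf under excess iron, Hacha leaf control, Lachit root under excess iron, Lachit root control, Hacha root under excess iron and Hacha root control. All plants were 11 days old and were grown in nutrient solution with 50 µM iron as a sodium EDTA chelate. For the last 2 days the excess-iron plants received the same medium plus 15 mM iron sulfate at pH 5.2, while control plants stayed at pH 6.2. Iron, sulfate and acidity changed together, so their shares in a difference cannot be told apart. Each group had 3 libraries except Hacha root under excess iron, which had 2. No label states that replicates are different plants. The p-values therefore describe the spread among these libraries, and that spread may be only technical.

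Nicotianamine synthase (NAS) joins S-adenosylmethionine molecules into nicotianamine, a small metal chelator that carries iron and zinc inside the plant. Nicotianamine aminotransferase (NAAT) turns nicotianamine into a keto acid, and deoxymugineic acid synthase (DMAS) reduces that acid to deoxymugineic acid, the phytosiderophore that rice releases to dissolve ferric iron. In rice, OsNAS1, OsNAS2, OsNAAT1 and OsDMAS1 are known as genes induced by iron deficiency. OsNAS3 is known to be regulated by iron status differently from the other two synthases and to be raised by iron excess.

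Library totals ran from 16659607 to 33386840 estimated counts. Levels are given as TPM, a share of all transcripts that allows for transcript length, and each gene had a single transcript of 1261 to 1510 bases. Summed over 6 leaf markers (Rubisco small subunit and light-harvesting genes), leaf libraries held 4483 to 17740 TPM in Lachit and 669.7 to 2013 TPM in Hacha under excess iron, against 78370 to 89090 TPM in Lachit control and 63880 to 85950 TPM in Hacha control. No root library exceeded 393.1 TPM for these markers. Summed over 5 root markers, roots held 436.5 to 546.9 TPM in Lachit and 196.5 to 223.3 TPM in Hacha under excess iron, against 3597 to 4770 TPM in Lachit control and 1788 to 2275 TPM in Hacha control, and no leaf library exceeded 36.55 TPM. Both organs thus matched their labels, but the organ markers were lower under excess iron in both varieties. Their part in the results below was not tested, and in whole organs fewer cells of a type and less RNA per cell cannot be told apart. In leaves, Hacha control replicate 1 and Lachit excess-iron replicate 3 correlated less with the other replicates across genes (0.945, and 0.867 to 0.927) than those did with each other (0.991 and 0.97). Leaf results are given without these 2 libraries where they change. For Hacha excess-iron replicate 1 the gap was smaller (0.929 to 0.947, against 0.968), and leaving it out ended the call of 1 of the 5 genes, OsNAS3 in the organ comparison of responses.

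Reads of OsNAS1 and OsNAS2 could not be kept fully apart. Their estimated counts were whole numbers, within 0.001, in only 1 of 23 libraries each, whereas their sum was whole in all 23. The program had thus divided shared reads between this pair, so their sum is firmer than either gene alone. The OsDMAS1 count was whole in 2 libraries, and its sum with the gene OS03G0237201 was fractional in 5 of the 23, so that gene accounts for only part of the reads it shared. The separate count of OS03G0237201 was 19.17% to 31.7% as large as that of OsDMAS1. OsNAS3 and OsNAAT1 had whole counts in every library.

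**Figure D1:**
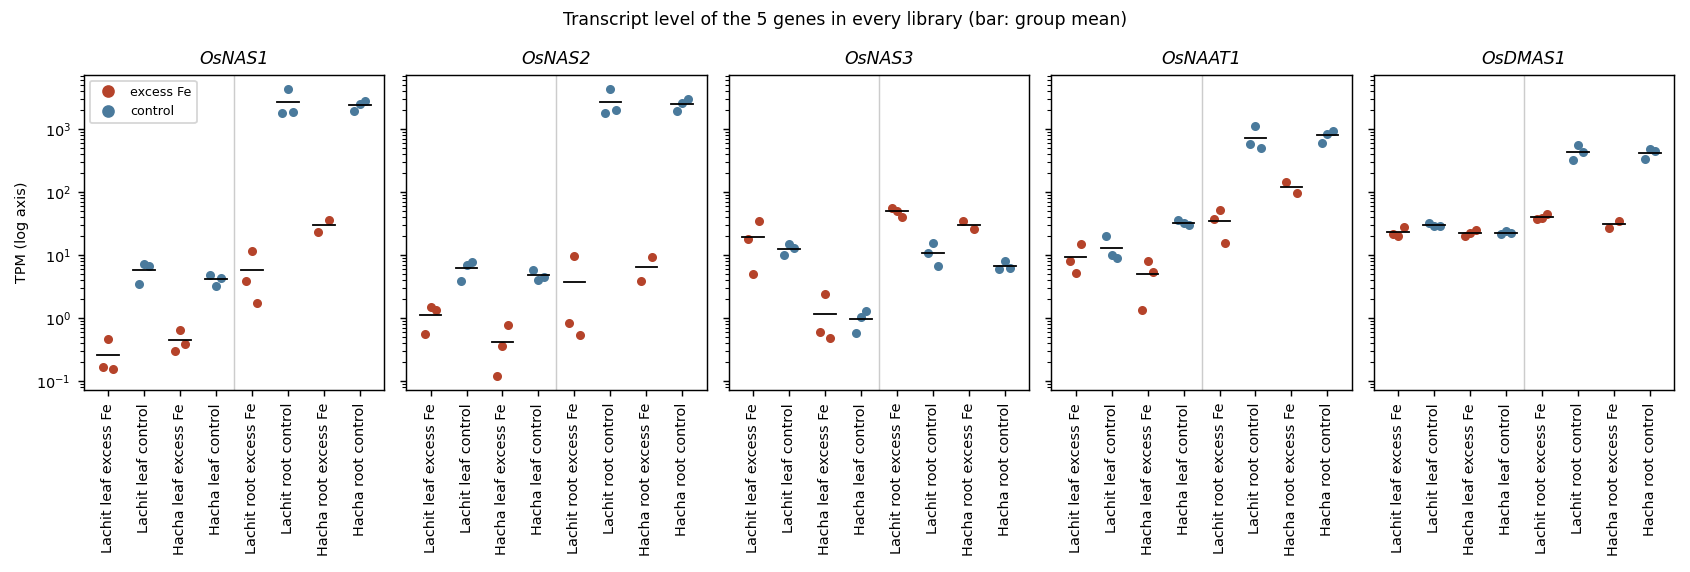
Level of each gene (TPM, log axis) in the 23 libraries, with excess-iron libraries in red and control libraries in blue, leaf groups left of the grey line, root groups right of it, and a bar at each group mean. By group mean, OsNAS1, OsNAS2, OsNAAT1 and OsDMAS1 are highest in the control roots of both varieties, whereas OsNAS3 is highest in excess-iron roots. Single OsNAS3 values of excess-iron Hacha roots and excess-iron Lachit leaves overlap.

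In roots, excess iron brought down the transcripts of 4 of the 5 genes and raised those of OsNAS3, in both varieties. OsNAS1 and OsNAS2, which were among the 37 most abundant genes of every control root library, fell to at most 35.8 TPM. OsNAAT1 and OsDMAS1 fell less far. OsNAS3, the scarcest of the 5 in control roots, rose 5.04-fold in Lachit and 5.82-fold in Hacha. All 5 genes passed the test in Lachit roots, where 58.7% of all 27479 genes tested did (29.4% higher, 29.3% lower). All 5 also passed in Hacha roots, where the share was 62.3% (29.6% higher, 32.7% lower). With such wide changes the number called is not particular to the pathway, and the sizes below carry the description. The test throughout is edgeR's quasi-likelihood test with Benjamini-Hochberg adjustment over all genes tested, with a call at an adjusted p below 0.05.

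OsNAS1 encodes a nicotianamine synthase that is known to be expressed with the iron-deficiency genes of the root. It had 3.83, 11.5 and 1.72 TPM in Lachit roots under excess iron, against 1776, 4303 and 1834 TPM in Lachit control roots. It had 22.9 and 35.8 TPM in Hacha roots under excess iron, against 1914, 2490 and 2800 TPM in Hacha control roots. No excess-iron root came near any control root, and every Hacha root under excess iron lay above every Lachit root under excess iron. Its log2 fold change was -8.74 ± 0.72 (SE) in Lachit (edgeR, adjusted p 2.65e-06) and -5.97 ± 0.76 in Hacha (adjusted p 4.66e-05). Without Lachit excess-iron replicate 2 the Lachit value was -9.69. A change of that size in either direction was found in 0.124% of genes tested in Lachit roots and in 3.16% in Hacha roots.

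OsNAS2 encodes the closely related synthase whose identifier lies beside that of OsNAS1 on chromosome 3. It had 0.827, 9.56 and 0.527 TPM in Lachit roots under excess iron, against 1793, 4313 and 2018 TPM in Lachit control roots. It had 3.89 and 9.09 TPM in Hacha roots under excess iron, against 1896, 2605 and 2943 TPM in Hacha control roots. Replicate 2 of the excess-iron Lachit roots stood above the other replicates for both synthases, and for OsNAS2 it lay above both excess-iron Hacha roots. On the log2 scale the change was -9.42 ± 1.02 in Lachit (edgeR, adjusted p 1.67e-05) and -8.20 ± 1.17 in Hacha (adjusted p 0.00011), and 0.0764% and 0.786% of genes tested changed as much. The Lachit value was -11.8 without excess-iron replicate 2, and the Hacha value -8.98 without excess-iron replicate 2.

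Summing OsNAS1 and OsNAS2 avoided the division of shared reads. The log2 fold change of the sum was -9.04 ± 0.85 in Lachit roots (edgeR, adjusted p 6.22e-06) and -6.65 ± 0.92 in Hacha roots (adjusted p 8.42e-05). The fall of the pair thus did not rest on how shared reads were assigned. The balance between them did differ between groups: the TPM ratio of OsNAS1 to OsNAS2 was 1.2 to 4.63 in Lachit and 3.94 to 5.89 in Hacha roots under excess iron, against 0.909 to 0.998 in Lachit and 0.951 to 1.01 in Hacha control roots. This ratio carries the uncertainty of the shared reads and was not tested.

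OsNAS3, on chromosome 7, encodes the third synthase. It had 56.1, 49.6 and 40.6 TPM in Lachit roots under excess iron, against 10.6, 15.3 and 6.6 TPM in Lachit control roots. It had 34.2 and 25.7 TPM in Hacha roots under excess iron, against 5.9, 7.89 and 6.19 TPM in Hacha control roots. The groups did not overlap in either variety, and the gene rose by a log2 fold change of 2.33 ± 0.25 in Lachit (edgeR, adjusted p 1.55e-05) and 2.54 ± 0.27 in Hacha (adjusted p 1.36e-05). The rise was of ordinary size for these data: 13.9% of genes tested in Lachit roots and 16.3% in Hacha roots changed as much.

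OsNAAT1, the aminotransferase, had 37.0, 51.1 and 15.4 TPM in Lachit roots under excess iron, against 568.1, 1102 and 495.3 TPM in Lachit control roots. It had 144.9 and 95.4 TPM in Hacha roots under excess iron, against 605.7, 827.6 and 941.5 TPM in Hacha control roots. The groups were separate in both varieties, and excess-iron Hacha roots kept more of the transcript than any excess-iron Lachit root. OsNAAT1 fell, with a log2 fold change of -4.26 ± 0.44 in Lachit (edgeR, adjusted p 1.17e-05) and -2.35 ± 0.47 in Hacha (adjusted p 0.00117). As large a change was found in 3.32% of genes tested in Lachit roots and 18.0% in Hacha roots.

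OsDMAS1, the reductase of the last step, had 36.7, 38.4 and 45.1 TPM in Lachit roots under excess iron, against 320.9, 557.3 and 428.7 TPM in Lachit control roots. It had 26.7 and 34.4 TPM in Hacha roots under excess iron, against 331.3, 477.1 and 447.6 TPM in Hacha control roots. The excess-iron values were close together in both varieties and far below the control values. The log2 fold change was -3.29 ± 0.25 in Lachit (edgeR, adjusted p 1.66e-06) and -3.39 ± 0.30 in Hacha (adjusted p 3.28e-06), and 7.02% and 10.6% of genes tested changed as much.

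**Figure D2:**
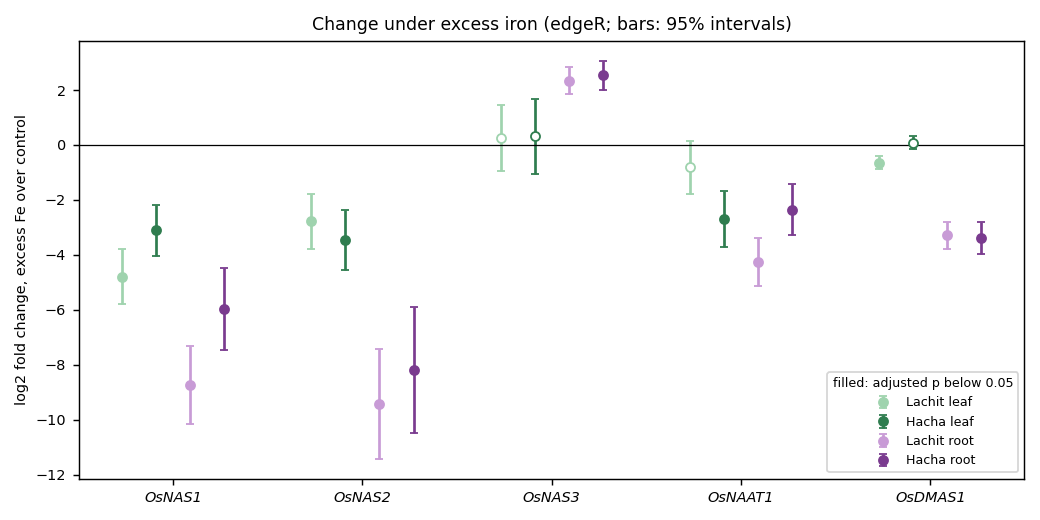
Log2 fold change of each gene under excess iron relative to control in the 4 combinations of organ and variety. Bars are approximate 95% intervals (1.96 standard errors), and filled points mark an adjusted p below 0.05. In roots 4 genes lie between -2.35 and -9.42 and OsNAS3 lies at 2.33 and 2.54, while in leaves the values are nearer 0 for most genes.

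The synthases together therefore changed in composition as well as in amount. The summed TPM of the 3 NAS genes averaged 58.1 ± 14.1 in Lachit roots under excess iron (SD, n = 3), against 5356 ± 2839 in Lachit control roots (n = 3). It averaged 65.8 ± 6.72 in Hacha roots under excess iron (n = 2), against 4889 ± 984.1 in Hacha control roots (n = 3). OsNAS3 made up 70.3% to 94.7% of this sum in Lachit and 36.4% to 56.1% in Hacha roots under excess iron, against at most 0.296% in Lachit and 0.155% in Hacha control roots. The remaining NAS transcript of excess-iron Lachit roots was mostly OsNAS3, whereas in Hacha it was divided between OsNAS3 and OsNAS1.

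**Figure D3:**
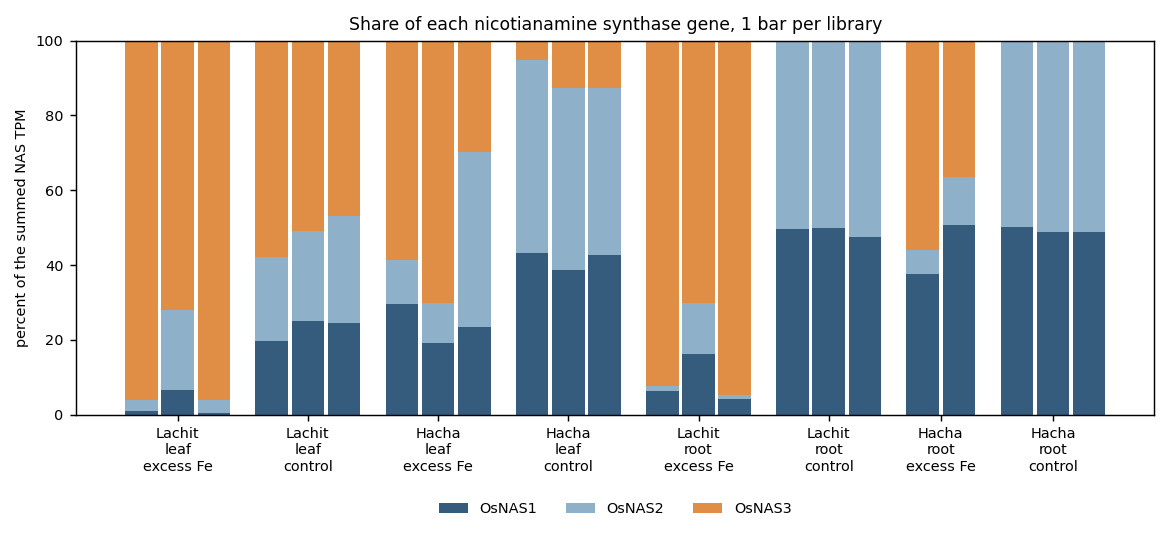
Percent of the summed TPM of OsNAS1, OsNAS2 and OsNAS3 contributed by each gene, with 1 bar per library, grouped with leaves left and roots right. OsNAS3, in orange, is at most 0.296% in control roots and 36.4% to 94.7% in excess-iron roots.

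In control plants, leaves held far less transcript of the pathway than roots, except for OsNAS3 in Lachit. Under excess iron the gap was narrower. The 5 genes together averaged 53.2 TPM in leaves and 132.6 TPM in roots of Lachit, and 29.0 TPM in leaves and 216.4 TPM in roots of Hacha. OsNAS1, OsNAS2 and OsNAAT1 fell in Hacha leaves, OsNAS1, OsNAS2 and OsDMAS1 fell in Lachit leaves, and OsNAS3 passed the test in neither. The 3 calls in Lachit leaves stand beside 38.7% of the 25505 genes tested there (19.7% higher, 19.1% lower). The 3 in Hacha leaves stand beside 65.3% (32.4% higher, 32.9% lower), so no result about the pathway is read from that count. In Lachit leaves 2.04% of genes tested changed as much as OsNAS1, 7.38% as much as OsNAS2 and 49.9% as much as OsDMAS1. In Hacha leaves the shares were 14.8% for OsNAS1, 11.75% for OsNAS2 and 19.5% for OsNAAT1.

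OsNAS1 had 0.167, 0.463 and 0.154 TPM in Lachit leaves under excess iron, against 3.44, 7.23 and 6.71 TPM in Lachit control leaves. It had 0.297, 0.649 and 0.38 TPM in Hacha leaves under excess iron, against 4.81, 3.19 and 4.28 TPM in Hacha control leaves. No values overlapped, although the excess-iron values rest on only 22 reads over the 3 Lachit libraries and 38 over the 3 Hacha libraries. The log2 fold change was -4.79 ± 0.51 in Lachit (edgeR, adjusted p 0.000187) and -3.11 ± 0.47 in Hacha (adjusted p 0.000222). Without Lachit excess-iron replicate 2 the Lachit value was -5.55.

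OsNAS2 had 0.547, 1.49 and 1.31 TPM in Lachit leaves under excess iron, against 3.89, 6.9 and 7.8 TPM in Lachit control leaves. It had 0.119, 0.362 and 0.759 TPM in Hacha leaves under excess iron, against 5.75, 4.03 and 4.47 TPM in Hacha control leaves. Again no values overlapped, with 89 reads behind the excess-iron Lachit values and 30 behind the Hacha ones. The log2 change was -2.77 ± 0.51 in Lachit (edgeR, adjusted p 0.00241) and -3.46 ± 0.56 in Hacha (adjusted p 0.000316), where it was -4.16 without excess-iron replicate 3. For the sum of OsNAS1 and OsNAS2 the values were -3.47 ± 0.43 in Lachit (edgeR, adjusted p 0.000359) and -3.28 ± 0.44 in Hacha (adjusted p 9.98e-05), and the summed response differed between the varieties by -0.19 ± 0.59 (adjusted p 0.852).

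OsNAS3 had 17.6, 5.04 and 35.0 TPM in Lachit leaves under excess iron, against 10.0, 14.7 and 12.8 TPM in Lachit control leaves. It had 0.593, 2.38 and 0.481 TPM in Hacha leaves under excess iron, against 0.583, 1.05 and 1.28 TPM in Hacha control leaves. Treated and control leaves overlapped in both varieties, with the highest and the lowest Lachit values both under excess iron. The estimated log2 change was 0.25 (95% interval -0.95 to 1.44) in Lachit (edgeR, adjusted p 0.78) and 0.31 (-1.04 to 1.66) in Hacha (adjusted p 0.707). The Lachit value was -0.33 without replicate 3 of the excess-iron leaves, one of the libraries that stood apart, and the Hacha value was -0.78 without replicate 2.

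OsNAAT1 had 7.93, 5.14 and 14.8 TPM in Lachit leaves under excess iron, against 20.1, 9.93 and 9.03 TPM in Lachit control leaves. It had 1.32, 8.01 and 5.28 TPM in Hacha leaves under excess iron, against 35.6, 32.0 and 29.8 TPM in Hacha control leaves. The Lachit groups overlapped and the Hacha groups did not. The log2 value was -0.81 (95% interval -1.78 to 0.16) in Lachit (edgeR, adjusted p 0.217) and -2.69 ± 0.52 in Hacha (adjusted p 0.00105), where it was -3.32 without excess-iron replicate 2.

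OsDMAS1 had 21.8, 20.0 and 28.1 TPM in Lachit leaves under excess iron, against 31.8, 28.7 and 28.7 TPM in Lachit control leaves. It had 19.9, 21.8 and 24.5 TPM in Hacha leaves under excess iron, against 21.3, 23.7 and 22.1 TPM in Hacha control leaves. Every excess-iron Lachit leaf was below every Lachit control leaf, by a small margin, while the Hacha groups overlapped. OsDMAS1 had a log2 fold change of -0.65 ± 0.12 in Lachit (edgeR, adjusted p 0.00285) and 0.08 (95% interval -0.17 to 0.32) in Hacha (adjusted p 0.598). The Lachit call was lost with library totals as scaling (-0.38, edgeR, adjusted p 0.0646), a scaling that moved the median of all genes in that comparison to 0.29, against 0.02 with the TMM scaling used here. It was lost also with limma on log2 TPM (-0.35, adjusted p 0.0745), so the direction was kept but not the call.

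In terms of composition, OsNAS3 made up 72.1% to 96.1% of the NAS transcript in Lachit leaves under excess iron, against 46.9% to 57.8% in Lachit control leaves. In Hacha leaves it made up 29.7% to 70.2% under excess iron, against 5.23% to 12.7% in control leaves. The share was higher under excess iron in both varieties, without a rise of OsNAS3 that passed the test. The summed NAS level was 20.6 ± 14.9 TPM in Lachit leaves under excess iron, against 24.5 ± 6.23 TPM in Lachit control leaves, and 2.01 ± 1.24 TPM in Hacha leaves under excess iron, against 9.81 ± 1.45 TPM in Hacha control leaves (SD, n = 3 each).

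Whether the varieties responded to a different degree was tested as the difference of the responses, Lachit minus Hacha. In roots 2 of 5 genes passed, OsNAS1 and OsNAAT1, beside 19.4% of all genes. The fall was steeper in Lachit, with a log2 difference of -2.77 ± 0.78 for OsNAS1 (edgeR, adjusted p 0.0316) and -1.91 ± 0.57 for OsNAAT1 (adjusted p 0.0399). These calls were near the threshold, and the OsNAS1 value was -3.75 without Lachit excess-iron replicate 2 (edgeR, adjusted p 0.00553). The OsNAS1 call was lost on leaving out either Hacha excess-iron root, Lachit excess-iron replicate 1, any Hacha control root or Lachit control replicate 2, with edgeR adjusted p from 0.0514 to 0.13. The OsNAAT1 call was lost without any of the same 7 libraries, with edgeR adjusted p from 0.0531 to 0.143, as it was with library totals, without the low-count filter, with limma and with both organs in one fit (adjusted p from 0.0524 to 0.101). For the sum of OsNAS1 and OsNAS2 the difference was -2.39 ± 0.91 (edgeR, adjusted p 0.0911).

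For the other genes the root responses differed by -1.22 (95% interval -3.44 to 1.01) for OsNAS2, -0.21 (-0.92 to 0.50) for OsNAS3 and 0.11 (-0.57 to 0.79) for OsDMAS1, with edgeR adjusted p of 0.492, 0.735 and 0.868. The OsNAS2 value turned on 1 library. Without the high replicate 2 of Lachit excess-iron roots it was -3.58 and passed the test (edgeR, adjusted p 0.012). These intervals, 1.96 standard errors on either side, are narrower than the test implies. They leave room for sizeable differences in OsNAS2 and less for OsDMAS1.

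Set side by side under excess iron, Lachit roots held less OsNAS1 and OsNAAT1 than Hacha roots, and these were the 2 of 5 genes called, beside 46.7% of all genes. The log2 difference was -2.49 ± 0.60 for OsNAS1 (edgeR, adjusted p 0.0061) and -1.90 ± 0.43 for OsNAAT1 (adjusted p 0.00427). For OsNAS1 the call was lost without Hacha excess-iron replicate 2 (-2.08, edgeR, adjusted p 0.0535), and without Lachit excess-iron replicate 2 the value was -3.46. The sum of OsNAS1 and OsNAS2 differed by -2.11 ± 0.68 (edgeR, adjusted p 0.0265). The other differences missed the threshold, at -0.94 (95% interval -2.69 to 0.81) for OsNAS2, 0.63 (0.10 to 1.15) for OsNAS3 and 0.32 (-0.20 to 0.83) for OsDMAS1, with edgeR adjusted p of 0.409, 0.077 and 0.349. In TPM, every excess-iron Lachit root nevertheless lay above every excess-iron Hacha root for OsNAS3 and for OsDMAS1. Without Lachit replicate 2 the OsNAS2 value was -3.30 and passed (edgeR, adjusted p 0.00296), and OsNAS3 passed with only the groups compared (0.59, edgeR, adjusted p 0.0217). In control roots OsNAS3 alone was called, beside 29.7% of all genes, at 10.8 ± 4.33 TPM in Lachit and 6.66 ± 1.08 TPM in Hacha (SD, n = 3 each), although the TPM values overlapped. Its log2 difference was 0.84 ± 0.25 (edgeR, adjusted p 0.0288). That call was lost without Lachit replicate 2 (0.495, edgeR, adjusted p 0.11), without Hacha replicate 1 or 3, with limma, with both organs in one fit and with only the groups compared, where adjusted p ran up to 0.315. The other 4 genes differed in control roots by 0.01 to 0.28 on the log2 scale, with edgeR adjusted p from 0.534 to 0.988.

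In leaves the varieties differed most in OsNAS3. It averaged 19.2 ± 15.1 TPM in Lachit and 1.15 ± 1.06 TPM in Hacha under excess iron, and 12.5 ± 2.34 TPM in Lachit and 0.969 ± 0.353 TPM in Hacha in control solution (SD, n = 3 each). Every Lachit leaf lay above every Hacha leaf in either solution. The log2 difference was 3.62 ± 0.70 under excess iron (edgeR, adjusted p 0.00254) and 3.68 ± 0.70 in control solution (adjusted p 0.00364). Without Hacha excess-iron replicate 2 the excess-iron value was 4.68. OsNAS3 was the only 1 of the 5 called under excess iron, beside 42.6% of all genes, and 1 of 2 in control leaves, beside 19.0%. The other call in control leaves was OsDMAS1, at 29.8 ± 1.80 TPM in Lachit and 22.3 ± 1.22 TPM in Hacha (SD, n = 3 each), a log2 difference of 0.42 ± 0.12 (edgeR, adjusted p 0.0364). This call was lost without the 2 leaf libraries that stood apart (0.33, edgeR, adjusted p 0.093) and on leaving out any of 5 of the 6 control leaves, with edgeR adjusted p up to 0.15. It was lost also with DESeq2's size factors, without the low-count filter, with limma and with both organs in one fit (adjusted p from 0.0536 to 0.22).

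The remaining variety differences in leaves missed the threshold. Under excess iron they were -1.15 (95% interval -2.19 to -0.10) for OsNAS1, 1.11 (0.02 to 2.20) for OsNAS2, 0.56 (-0.42 to 1.53) for OsNAAT1 and -0.31 (-0.55 to -0.07) for OsDMAS1, with edgeR adjusted p of 0.103, 0.128, 0.383 and 0.0653. The sum of OsNAS1 and OsNAS2 differed by 0.29 ± 0.44 (edgeR, adjusted p 0.609), and the opposite values of the pair carry the uncertainty of their shared reads. Taken singly, OsNAS1 passed at -1.90 without Lachit excess-iron replicate 2 (edgeR, adjusted p 0.0124), and OsNAS2 passed at 1.81 without Hacha excess-iron replicate 3 (adjusted p 0.0351) and at 1.35 with limma on log2(TPM + 0.1) (adjusted p 0.0472). OsDMAS1 had no settled direction: it passed at -0.34 with DESeq2 (adjusted p 0.0243) but was 0.11 with library totals and 0.065 and 0.067 with limma, and its mean TPM was 23.3 in Lachit and 22.1 in Hacha. In control leaves OsNAAT1 differed by -1.32 (-2.29 to -0.35; edgeR, adjusted p 0.0893), and this passed with DESeq2 at -1.35 (adjusted p 0.0414) and with other sample sets. The intervals for OsNAS1 and OsNAS2 in control leaves were -0.27 to 1.34 and -0.50 to 1.34.

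Among the 5 genes, only OsDMAS1 passed the test of a difference between the leaf responses of the varieties, beside 16.5% of all genes. This count is near that share. The OsNAAT1 and OsNAS1 estimates given below were larger, and 16.4% and 19.8% of genes tested differed as much as these. For OsDMAS1 49.7% did, with a log2 difference of -0.73 ± 0.18, Lachit minus Hacha (edgeR, adjusted p 0.0235). It was -0.37 with library totals as scaling (edgeR, adjusted p 0.216), -0.33 and -0.34 with limma at pseudocounts of 1 and 0.1 (adjusted p 0.253 and 0.259) and -0.64 with both organs in one fit (edgeR, adjusted p 0.0882). Leaving out Lachit excess-iron replicate 1, Hacha control replicate 3 or any Lachit control leaf also ended the call, with edgeR adjusted p from 0.0539 to 0.081. OsNAAT1 differed by 1.88 (95% interval 0.51 to 3.25) without passing (edgeR, adjusted p 0.0864), although the treatment change passed in Hacha leaves and not in Lachit leaves. That difference passed with DESeq2, at 1.87 (adjusted p 0.0444), with limma on log2(TPM + 1) (adjusted p 0.0404), with both organs in one fit (edgeR, adjusted p 0.0385) and without Hacha excess-iron replicate 2, at 2.49 (edgeR, adjusted p 0.0336). OsNAS1 differed by -1.68 (-3.0 to -0.37; edgeR, adjusted p 0.103), OsNAS2 by 0.69 (-0.73 to 2.11; adjusted p 0.525) and OsNAS3 by -0.07 (-1.84 to 1.71; adjusted p 0.975). The OsNAS1 difference was -2.44 and passed the test without Lachit excess-iron replicate 2 (edgeR, adjusted p 0.0189).

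Between organs, leaves held less transcript than roots for nearly every gene. In control plants 4 of 5 genes were lower in the leaf in Lachit, beside 38.9% of all genes (66.1% in either direction), and 5 of 5 in Hacha, beside 37.3% (67.0% in either direction). The log2 differences of OsNAS1 and OsNAS2 were -8.33 and -8.27 in Lachit and -8.52 and -8.36 in Hacha (edgeR, adjusted p at most 2.59e-07 for each). The OsNAAT1 difference was -5.32 ± 0.56 in Lachit (edgeR, adjusted p 1.1e-07) and -3.92 ± 0.53 in Hacha (adjusted p 2.34e-06). For OsDMAS1 it was -3.39 ± 0.21 in Lachit (edgeR, adjusted p 6.2e-11) and -3.54 ± 0.21 in Hacha (adjusted p 3.85e-11). As large a difference as for OsNAS1 and OsNAS2 was found in 2.01% to 3.01% of genes tested. The shares for OsNAAT1 were 11.85% in Lachit and 18.7% in Hacha, and for OsDMAS1 22.3% and 21.3%.

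OsNAS3 was the exception in this order. In Lachit control plants its level did not pass the test between leaf and root, at 12.5 TPM in leaf and 10.8 TPM in root, with a log2 difference of 0.72 (95% interval -0.24 to 1.68; edgeR, adjusted p 0.206). With only those groups in the fit it was 0.91 and passed (edgeR, adjusted p 0.0131). In Hacha control plants it was lower in leaf, at 0.969 TPM against 6.66 TPM in root, with a log2 difference of -2.06 ± 0.55 (edgeR, adjusted p 0.00285). As large a difference was found there in 35.8% of genes tested.

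Under excess iron the estimates for the organs lay closer together for OsNAS1, OsNAS2 and OsDMAS1 in both varieties and for OsNAAT1 in Lachit. They lay further apart for OsNAS3 in both varieties, and slightly for OsNAAT1 in Hacha (-4.33, against -3.92 in control plants). In Lachit 4 of 5 genes were lower in leaf, beside 30.2% of all genes (58.1% in either direction). The log2 differences were -4.32 ± 0.66 for OsNAS1 (edgeR, adjusted p 1.56e-05), -1.80 ± 0.49 for OsNAAT1 (adjusted p 0.00384), -1.30 ± 0.49 for OsNAS3 (adjusted p 0.0283) and -0.69 ± 0.19 for OsDMAS1 (adjusted p 0.00518). As large a difference was found in 11.7%, 32.6%, 41.5% and 59.3% of genes tested, in the same order. The OsNAS3 call was lost without Lachit excess-iron root replicate 1 or leaf replicate 1 or 2, with edgeR adjusted p from 0.064 to 0.138, and with only the groups compared (-1.24, adjusted p 0.0909). The OsNAS1 value was -3.37 without root replicate 2 and -5.01 without leaf replicate 2. OsNAS2 differed by -1.54 (95% interval -3.04 to -0.04; edgeR, adjusted p 0.0942), by 0.78 without root replicate 2, and by -2.0 and -2.03 without root replicates 1 and 3, where it passed (edgeR, adjusted p 0.0317 and 0.024). The sum of OsNAS1 and OsNAS2 differed by -2.66 ± 0.62 (adjusted p 0.0012). In Hacha 4 of 5 genes were lower in leaf, beside 27.4% (53.7% in either direction). The log2 differences were -5.72 for OsNAS1, -3.70 for OsNAS2, -4.36 for OsNAS3 and -4.33 for OsNAAT1 (edgeR, adjusted p at most 0.00226 for each). Differences as large as these were found in 4.70% to 13.0% of genes tested. Leaving out 1 library moved OsNAS2 to -2.93 (root replicate 2) or -4.39 (leaf replicate 3), and OsNAS3 to -5.38 (leaf replicate 2). OsDMAS1 differed by -0.13 (-0.56 to 0.29; edgeR, adjusted p 0.627), and with library totals as scaling this became -0.53 and passed (edgeR, adjusted p 0.0404).

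The difference of the responses, leaf minus root, passed the test for 5 of 5 genes in Lachit, beside 32.0% of all genes, and for 4 of 5 in Hacha, beside 46.3%. The falls of OsNAS1 and OsNAS2 were smaller in leaf than in root by 4.00 ± 0.90 and 6.73 ± 1.10 on the log2 scale in Lachit (edgeR, adjusted p 0.00228 and 0.000167). In Hacha the corresponding values were 2.79 ± 0.85 and 4.66 ± 1.26 (edgeR, adjusted p 0.0117 and 0.00522), and the first was 2.48 without Hacha root excess-iron replicate 1, where its call was lost (edgeR, adjusted p 0.0605). Leaving out excess-iron root replicate 2 moved the Lachit values to 4.95 and 9.05 and the Hacha OsNAS2 value to 5.43. Without excess-iron leaf replicate 2 the Lachit OsNAS1 value was 3.16, and without excess-iron leaf replicate 3 the Hacha OsNAS2 value was 3.97. Both genes were already low in control leaves, with 531 and 504 reads per group in Lachit and 348 and 362 in Hacha. Excess-iron leaves held 22 and 89 reads in Lachit and 38 and 30 in Hacha. A fall as steep as in root would have left few reads, and the part of this low start in the difference was not tested.

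The root rise of OsNAS3 exceeded the leaf change, the difference being -2.02 ± 0.69 in Lachit (edgeR, adjusted p 0.0313) and -2.30 ± 0.80 in Hacha (adjusted p 0.0239). The Lachit value was -1.99 with limma on log2(TPM + 0.1), where the call was lost (adjusted p 0.05 after rounding). With library totals as scaling the OsNAS3 differences missed the threshold, at -1.64 in Lachit (edgeR, adjusted p 0.0892) and -2.04 in Hacha (adjusted p 0.0554), and leaving out 1 library ended the call in several cases. In Lachit these were excess-iron root replicate 1, control root replicates 1 and 3, excess-iron leaf replicate 1 and control leaf replicates 2 and 3 (edgeR, adjusted p from 0.0534 to 0.0816). In Hacha they were excess-iron root replicate 1, excess-iron leaf replicates 1 and 3 and control leaf replicates 2 and 3 (adjusted p from 0.052 to 0.0744), while without excess-iron leaf replicate 2 the Hacha value was -3.32.

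For OsDMAS1 the difference of the organ responses was 2.70 ± 0.28 in Lachit (edgeR, adjusted p 1.95e-06) and 3.40 ± 0.30 in Hacha (adjusted p 1.29e-07). For OsNAAT1 it was 3.52 ± 0.69 in Lachit (edgeR, adjusted p 0.000755), against -0.41 in Hacha (95% interval -1.80 to 0.97; adjusted p 0.679). The reductase transcript thus changed more in root than in leaf in both varieties.

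Ordered by mean level over the 8 groups, OsNAS1, OsNAS2 and OsDMAS1 were highest in Lachit and then Hacha control roots, and OsNAAT1 in Hacha and then Lachit control roots, with overlapping values between the varieties for all 4. The next group was lower by 81.8 times for OsNAS1, 382.0 times for OsNAS2, 6.01 times for OsNAAT1 and 10.5 times for OsDMAS1, without overlap. Below that step neighbouring groups mostly overlapped. OsNAS2 overlapped between every pair of neighbours from excess-iron Hacha root, at 6.49 TPM, down to excess-iron Hacha leaf, at 0.413 TPM. OsNAS3 ran from excess-iron Lachit root, at 48.8 TPM, over excess-iron Hacha root and the Lachit leaves to Hacha control leaf, with a gap of 5.79 times between Hacha control root and the Hacha leaves. Its neighbours in that order overlapped except at this gap and between the excess-iron roots of Lachit and Hacha. OsDMAS1 spanned only 22.1 to 40.0 TPM over the 6 groups other than control root.

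The profile of each gene was also set beside those of 29238 other genes, as the root-mean-square difference of the 8 group means of log2(CPM + 1), each gene centred on its own mean. Only 8 group means enter, and except for OsNAS3 the profiles are dominated by the step between control roots and the rest, so these values are descriptions. The closest to OsNAS1 was OS02G0650300 at 0.425, followed by OS10G0454200 at 0.779 and OsNAS2 at 0.821. OsNAS1 was the closest gene to OsNAS2, and the next were OS05G0499300 at 1.06 and OS10G0454200 at 1.07. For OsNAAT1 the closest were OS04G0381700 at 0.596 and OS09G0513200 at 0.691.

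OsDMAS1 had the nearest match of all, OS03G0780800 at 0.109, followed at 0.143 by OS03G0237201, the gene with which it shares reads. For OsNAS3 the closest were OS09G0272600 at 0.57 and OS06G0215900 at 0.602. Its distance to OsNAS1 was 4.28 and to OsNAS2 4.42, ranks 29118 and 29149 among the 29238 genes from the closest. The distance is not scaled, so it grows with the size of a gene's changes as well as with a difference in shape. From OsDMAS1, which fell with them in roots, OsNAS1 and OsNAS2 ranked 26734 and 26458, and OsNAS3 ranked 25045. A far rank of this pair is thus not particular to OsNAS3.

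**Figure D4:**
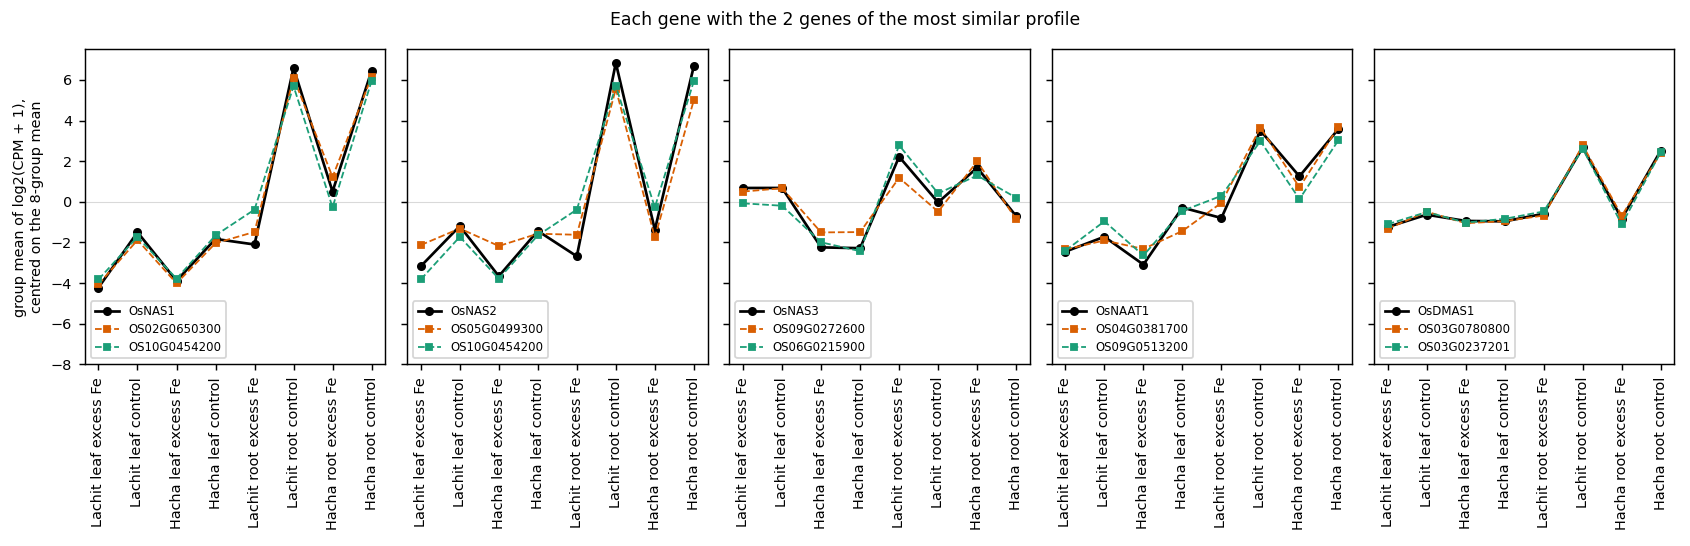
Centred group means of log2(CPM + 1) over the 8 groups for each of the 5 genes (black) and the 2 closest other genes (dashed). The distance is 0.109 for the closest match, to OsDMAS1, and 1.06 for the closest non-member match to OsNAS2.

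Genes connected to the pathway were read from 3 lists, drawn up by identifier from general knowledge. Earlier results of these data were known when the lists were chosen, so the list counts are descriptions. The files do not pair identifiers with names, so these assignments could not be checked and the genes are given by identifier alone. The first list held 9 genes for the supply of S-adenosylmethionine, the substrate of NAS, through its synthetases and the salvage of methionine. In Lachit roots 6 of 9 fell and 1 rose (median log2 fold change -1.39, against 0.00 over all genes), where 29.3% of all genes were lower and 29.4% higher. In Hacha roots 6 fell and 2 rose (median -1.99, against -0.05), beside 32.7% lower and 29.6% higher. In Lachit leaves 1 fell and 3 rose (median 0.16, against 0.02), beside 19.1% lower and 19.7% higher, and in Hacha leaves 2 fell and 4 rose (median 0.33, against 0.00), beside 32.9% lower and 32.4% higher. No result about the list is read from its leaf counts. The genes with the largest called change were OS04G0669800 in Lachit roots (31.3 ± 2.11 TPM under excess iron, against 372.9 ± 152.9 TPM in control; -3.43) and OS11G0484000 in Hacha roots (80.9 ± 13.9 TPM, against 823.6 ± 150.1 TPM; -2.97). In leaves they were OS05G0135700 in Lachit (1246 ± 112.7 TPM, against 289.2 ± 63.9 TPM; 1.82) and OS10G0419400 in Hacha (20.2 ± 9.34 TPM, against 2.95 ± 2.49 TPM; 3.01). The edgeR adjusted p of these 4 was at most 0.00198.

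The second list held 8 genes for the transport of nicotianamine and deoxymugineic acid and of their metal complexes, which carry iron across membranes in rice. In roots 8 of 8 fell in Lachit (median -4.29), beside 29.3% of all genes, and 7 of 8 in Hacha (median -3.54), beside 32.7%. In leaves 4 of 8 fell in Lachit (median -1.15), beside 19.1%, and 3 of 8 in Hacha (median -0.24), a count near the 32.9% of all genes. OS11G0134900 had the largest fall in Lachit roots, at 0.865 ± 0.743 TPM under excess iron, against 245.2 ± 162.3 TPM in control (-7.98 ± 0.63; edgeR, adjusted p 2.15e-06). In Lachit leaves the same gene had 0 reads over the 3 excess-iron libraries and 54 over the 3 control libraries, which is at least 18.2-fold lower with a floor of 3 reads over the group (edgeR, adjusted p 0.00158), and with that bound the list's median was -1.14. OS02G0650300, the gene closest to OsNAS1 in profile, had the largest fall in Hacha roots (24.6 ± 7.76 TPM under excess iron, against 939.6 ± 152.3 TPM in control; -4.94 ± 0.42; edgeR, adjusted p 2.8e-06) and in Hacha leaves (-5.42 ± 0.77; adjusted p 0.000146).

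The third list held 11 regulators of the iron-deficiency response, of which 10 were in the files and tested. In roots 4 of 10 fell and 4 rose in each variety (medians -0.37 in Lachit and -0.05 in Hacha), close to the shares of all genes, which were 29.3% lower and 29.4% higher in Lachit and 32.7% and 29.6% in Hacha. In leaves 7 fell and 1 rose in Lachit (median -1.30), beside 19.1% lower and 19.7% higher, and 6 fell and 2 rose in Hacha (median -1.34), beside 32.9% and 32.4%. OS01G0952800 fell in all 4 comparisons. It averaged 1.74 ± 0.835 TPM in Lachit roots under excess iron, against 313.6 ± 60.4 TPM in control (-7.34 ± 0.31; edgeR, adjusted p 1.03e-07), and 5.61 ± 0.824 TPM in Hacha roots under excess iron, against 317.3 ± 42.5 TPM in control (-5.44 ± 0.34; adjusted p 4.7e-07). In Hacha leaves it averaged 0.87 ± 0.133 TPM under excess iron, against 212.6 ± 16.0 TPM in control (-7.81 ± 0.41; edgeR, adjusted p 2.69e-06).

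In Lachit leaves OS01G0952800 averaged 1.4 ± 0.326 TPM under excess iron, against 59.6 ± 24.8 TPM in control (-5.69 ± 0.37; edgeR, adjusted p 2.48e-05). OS04G0381700, the gene closest to OsNAAT1 in profile, had a larger fitted value there, but one that rests on libraries without reads. It had 0 reads over the 3 excess-iron libraries and 24 over the 3 control libraries, at least 8.11-fold lower with the same floor (edgeR, adjusted p 0.00301). With that bound the list's median was -1.31. Both bounds cover counting error only.

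**Figure D5:**
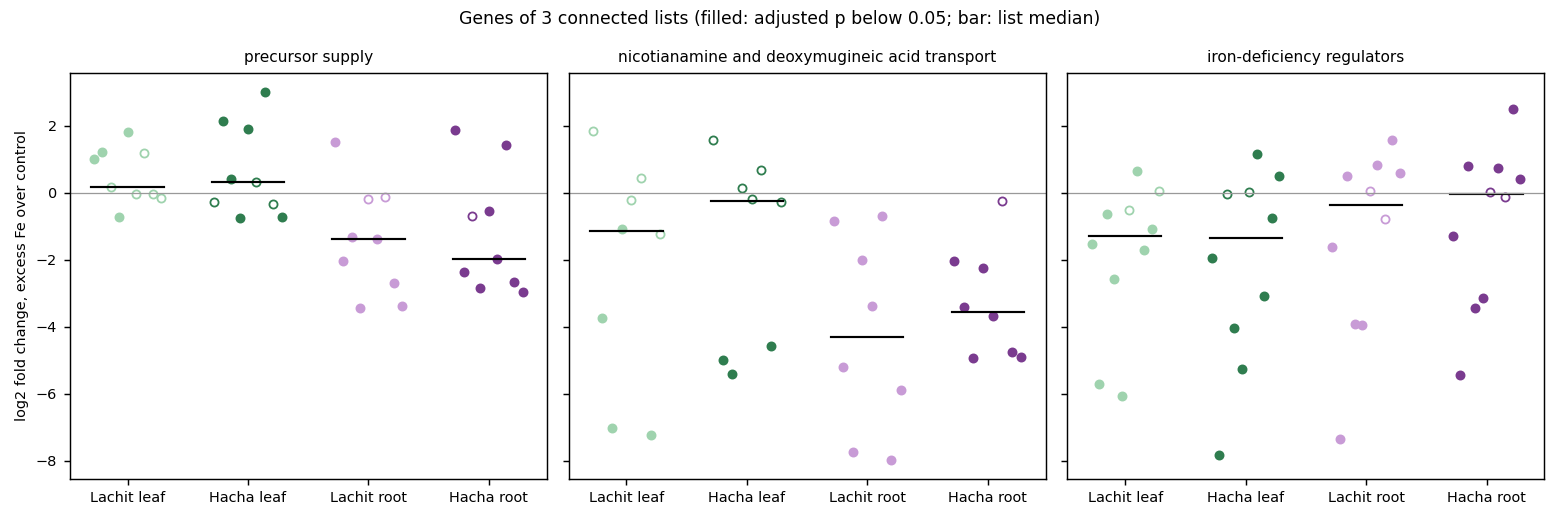
Log2 fold change under excess iron relative to control for the tested genes of the 3 lists, in leaves (green) and roots (purple) of each variety, filled where the adjusted p was below 0.05, with a bar at each median. The transport genes lie below 0 in roots (medians -4.29 in Lachit and -3.54 in Hacha), while the regulators scatter on both sides.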

How the data were processed

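RNA sequencing libraries of leaves and roots were grouped by their titles. The authors deposited 1 table per library with an estimated count and a TPM value for each transcript. Per the submitters' processing notes, kallisto, bcl2fastq and the build IRGSP-1.0 were used; the sources used here give no versions or settings. The deposited estimated counts are not normalized, and the authors' TPM values are per transcript length, with an equal total in each library. The library kit does not mark strand, so antisense reads cannot be told apart. A series-wide TPM table with 23 columns was not used.

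Counts of 42346 transcripts were added up over 35679 genes and rounded. edgeR 4.0.16 (R 4.3.3) was run with filterByExpr, TMM scaling and robust quasi-likelihood fits over the 4 groups of each organ (27479 genes in root, 25505 in leaf), or over all 8 groups for comparisons between organs (29243 genes). Adjusted p-values run over all genes tested. Intervals given as 95% are 1.96 standard errors on either side, a normal approximation. With few libraries they are narrower than the test implies, and some leave out 0 although the unadjusted p exceeds 0.05. For OsNAS1 between varieties in excess-iron leaves, the interval was -2.19 to -0.10 and the unadjusted edgeR p 0.0541. The procedure was also run on simulated counts in which few genes changed. That setting differs from these data, so the run gives no support to the calls here. No 2 replicates agreed within sampling noise. Alternatives used DESeq2 1.42.0, limma 3.58.1 on log2(TPM + 1) or log2(TPM + 0.1), other scalings, filters and sample sets, offsets from effective length, and leaving out each library; the fit without the 2 leaf libraries was added after the data were seen. TMM held the median log2 fold change of all genes within 0.24 of 0. With library totals it was between -0.79 and 0.46, and changes are relative to the TMM scale.

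The genes and lists were chosen with earlier results of these data known. Named genes are the 5 members, the 2 non-member genes closest to each in profile, and from each list the called gene with the largest fitted change in each treatment comparison. A RefSeq table of another assembly matched no member, so no sequence is printed. Chromosomes are those that the identifiers carry.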

Additional observations from a re-analysis of the deposited data

Results flagged for a closer look

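For 12 results the difference between 2 responses to excess iron passed its own test by edgeR, and they are listed with their log2 differences. Between varieties in root, Lachit minus Hacha, these were OsNAS1 (-2.77) and OsNAAT1 (-1.91), both lost on leaving out single libraries. Between varieties in leaf it was OsDMAS1 (-0.73), which was lost with library totals as scaling, with limma, with both organs in one fit and on leaving out any of 5 single libraries.

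Between organs in Lachit, leaf minus root, the differences were 4.00 for OsNAS1, 6.73 for OsNAS2, -2.02 for OsNAS3, 3.52 for OsNAAT1 and 2.70 for OsDMAS1. Between organs in Hacha they were 2.79 for OsNAS1, 4.66 for OsNAS2, -2.30 for OsNAS3 and 3.40 for OsDMAS1. Both OsNAS3 calls were lost with library totals as scaling and on leaving out single libraries, and the Lachit one also with limma on log2(TPM + 0.1). The Hacha OsNAS1 value was 2.48 without Hacha excess-iron root replicate 1. The share of leaf and root markers in these organ differences was not tested, nor was that of the low leaf level of OsNAS1 and OsNAS2.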

How the results depend on the processing

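No paired analysis was possible because no replicate number recurs between groups in the labels. For the treatment, 5 genes were called in roots of either variety and 3 in Hacha leaves under every alternative and on leaving out any library, and in Lachit leaves 2 or 3. Over all 16 comparisons, 1225 log2 fold changes of the 5 genes under an alternative kept their direction and their side of the threshold, 70 lost the call, 21 gained one and 44 changed sign. The 1225 include values that were called in neither fit, so they do not measure how stable the calls are. The fit with OsNAS1 and OsNAS2 summed is counted for both genes. A group left with 1 library takes its spread from the other groups. The causes of the changes below were not tested.

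Of 2 genes called, the root response difference between varieties kept 1 with library totals, without the low-count filter, with limma at either pseudocount, with OsNAS1 and OsNAS2 summed and with both organs in one fit, and 0 to 3 on leaving out 1 library. Lachit against Hacha in excess-iron roots had 1 to 3 calls on leaving out 1 library, against 2. In control roots the single call went to 0 with limma at either pseudocount, with both organs in one fit and with only the groups compared, and to 0 or 1 on leaving out 1 library. The leaf response difference had 0 calls with library totals and with limma at the smaller pseudocount, 2 with DESeq2 and 0 to 2 on leaving out 1 library, against 1; with limma at the larger pseudocount and with both organs in one fit the single call was OsNAAT1 in place of OsDMAS1. Lachit against Hacha in excess-iron leaves had 2 with DESeq2 and with limma at the smaller pseudocount and 1 to 2 on leaving out 1 library, against 1. In control leaves it had 1 with DESeq2's size factors, without the filter, with limma at either pseudocount and without the 2 leaf libraries, and 1 to 2 on leaving out 1 library, against 2. The organ difference of the Hacha response had 2 to 4 on leaving out 1 library, against 4.

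Sign changes concerned values that missed the threshold. With limma at pseudocounts 1 and 0.1, the OsNAS3 root response difference was 0.12 and 0.081, OsNAAT1 in control roots -0.20 and -0.20, OsDMAS1 in Hacha leaves -0.020 and -0.021, the OsNAS3 leaf response difference 0.22 and 0.28, and OsDMAS1 between varieties in excess-iron leaves 0.065 and 0.067. OsNAS3 in Hacha leaves was -0.038 at 0.1, and the organ difference of the OsNAAT1 response in Hacha 0.0024 at 1. With library totals, OsNAAT1 in control roots was -0.082, OsDMAS1 in Hacha leaves -0.0036, the OsNAS3 leaf response difference 0.35 and OsDMAS1 in excess-iron leaves 0.11. With both organs in one fit, OsNAAT1 in control roots was -0.016 and the OsNAS3 leaf response difference 0.019, and with only the groups compared OsNAAT1 was -0.0042. With OsNAS1 and OsNAS2 summed, the OsNAS2 leaf response difference was -0.19 and OsNAS1 in excess-iron leaves 0.29. Without the 2 leaf libraries, OsDMAS1 in Hacha leaves was -0.045 and OsNAS3 in Lachit leaves -0.33.

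On leaving out 1 library, the root response difference ran from -0.45 to 0.13 for OsNAS3 and -0.13 to 0.35 for OsDMAS1. Lachit against Hacha in control roots ran from -0.27 to 0.53 for OsNAS1, -0.24 to 0.53 for OsNAS2, -0.44 to 0.20 for OsNAAT1 and -0.010 to 0.42 for OsDMAS1. In leaves the treatment change ran from -0.78 to 0.68 for OsNAS3 and -0.032 to 0.13 for OsDMAS1 in Hacha, and from -0.33 to 0.67 for OsNAS3 in Lachit, and the OsNAS3 leaf response difference from -0.63 to 1.01. Leaf minus root under excess iron ran from -0.33 to 0.096 for OsDMAS1 in Hacha and from -2.03 to 0.78 for OsNAS2 in Lachit.

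Counts over all genes, on which the background shares rest, moved by over 1.5 times in 6 comparisons. They ran from 2057 to 7122 genes for the root response difference (5332 as reported), from 5116 to 8546 for control roots (8148), from 6142 to 12800 for Lachit leaves under treatment (9883), from 1244 to 8133 for the leaf response difference (4196), from 5015 to 14122 for excess-iron leaves (10864) and from 3193 to 9302 for control leaves (4857). Depth limits the leaf values of OsNAS1 and OsNAS2 under excess iron, which rest on 22 to 89 reads per group.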
